A study of Acomys cahirinus and Mus musculus with 6 samples.

Results

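Sebaceous gland cells make up 3902 of the 39577 cells recovered from healing ear punches of the spiny mouse (Acomys) and the laboratory mouse, and are the cells to which the authors' deposited annotation gives the name Sebaceous gland. A share of each library carried this name: 1404 cells in the library of spiny mice given DMSO, 66 with an ERK inhibitor, 1404 with an ErbB2 inhibitor and 607 with an inhibitor of FGFR1/2/3. In the laboratory mouse it was 188 cells in the library with PBS beads and 233 in that with FGF2/Nrg1 beads. The spiny mice are labelled wild-type and were injected from day 12 to day 15 with one inhibitor or with DMSO, the solvent control. The laboratory mice are labelled CD1 and had micro-beads, soaked in PBS or in recombinant FGF2 and NRG1, implanted locally on day 10. All 6 libraries are labelled ear pinna skin and healing ear punch, and each group was 1 library. No source used here gives the age of the animals, the number pooled in a library or the day of collection.

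The sebaceous gland opens into the hair follicle and produces sebum, a mixture of wax esters, triglycerides, squalene and free fatty acids. Its outer layer of dividing cells feeds the centre of the gland, where sebocytes enlarge, fill with lipid droplets and finally break down whole, a process called holocrine secretion. The nuclear receptor PPARG drives the lipid genes of this programme, fatty acid synthase and its partners build the chains, elongases and desaturases modify them, and the acyltransferases AWAT1 and AWAT2 join them to fatty alcohols as wax esters. ERK is the last kinase of a cascade started by receptors of the ErbB and FGF families, among others.

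The sebaceous cells held 8424636 UMIs (unique molecular identifiers, each standing for 1 captured RNA molecule) in the DMSO library, 784623 with the ERK inhibitor, 9752403 with the ErbB2 inhibitor and 4359146 with the FGFR inhibitor. In the mouse they held 1945901 UMIs with PBS and 2526605 with FGF2/Nrg1. The median sebaceous cell had between 2152 UMIs (PBS) and 9233 UMIs (FGF2/Nrg1). With the ERK inhibitor 8.23% of all sebaceous UMIs came from 1 cell, so that library weighs little wherever it is set beside the others. Only 2 of 3900 sebaceous barcodes, and 184 of 39393 barcodes in all, occurred in more than 1 library. Values are given as CPM, the usual counts per 1000000, here the UMIs of a gene scaled to the sum of all UMIs of the sebaceous cells in that library. No group had a replicate, so nothing was tested. Intervals in brackets are at 95%, cover counting error only, and a difference compares libraries, not conditions. Reads of the spiny mouse carry mouse gene symbols in the table, so ratios across species were not taken.

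The share of cells named sebaceous was 9.14% (8.69 to 9.61) with DMSO, 10.5% (8.18 to 13.1) with the ERK inhibitor, 13.2% (12.6 to 13.9) with the ErbB2 inhibitor and 12.7% (11.8 to 13.7) with the FGFR inhibitor. In the mouse it was 6.13% (5.31 to 7.04) with PBS and 4.57% (4.01 to 5.17) with FGF2/Nrg1. The order of the mouse pair turned over when the count was taken among keratinocytes, follicle and gland cells only, where the shares were 12.4% and 13.7%. Among spiny mouse cells with at least 2000 UMIs the shares were 9.83% with DMSO, 8.58% with the ERK inhibitor, 11.8% with the ErbB2 inhibitor and 10.3% with the FGFR inhibitor, so that much of the gap between DMSO and the inhibitor libraries lay in cells of few UMIs. How many cells of each type survived dissociation was not measured.

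The name was set beside 7 marker genes. The cells were annotated from these same counts, so the marker levels describe them and are no independent check. Cers4 encodes a ceramide synthase (GRCm38 chromosome 8, 4493026 to 4531680, plus strand). It stood at 4296 CPM in DMSO sebaceous cells, 3691 with the ERK inhibitor, 4146 with the ErbB2 inhibitor, 5199 with the FGFR inhibitor, 4235 with PBS and 4289 with FGF2/Nrg1. The 6 libraries thus lie within a narrow range for this gene. Fasn, fatty acid synthase (chromosome 11, 120805846 to 120824547, minus strand), stood at 1325, 1180, 961 and 1413 CPM in the spiny mouse libraries, in the order DMSO, ERK, ErbB2 and FGFR inhibitor, and at 350 and 362 CPM in the mouse libraries, PBS first. Pparg (chromosome 6, 115360951 to 115490399, plus strand) stood at 178, 233, 178 and 194 CPM and at 145 and 124 CPM in the same order. Both genes were thus present in the sebaceous cells of every library.

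The other 4 markers encode enzymes of lipid and foreign compound metabolism. Ces1d, a carboxylesterase, ranged from 750 to 930 CPM in the spiny mouse and was at 271 and 318 CPM in the mouse. Acss2, which makes acetyl-CoA from acetate, lay between 153 and 304 CPM in all 6 libraries. Acsm3, a medium-chain acyl-CoA synthetase, ranged from 93.0 to 138 CPM in the spiny mouse and was at 14.9 and 14.6 CPM in the mouse. Cyp1a1, a cytochrome P450 under the aryl hydrocarbon receptor, ranged from 58.1 CPM with PBS to 101 CPM with the ErbB2 inhibitor.

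All 7 markers were higher in sebaceous cells than in any other annotated type in 5 of the 6 libraries. In the PBS library 6 of 7 were, the exception being Acsm3. With every cell thinned to 1000 UMIs the count was 7 of 7 in the DMSO, ErbB2 and FGFR inhibitor libraries and 6 of 7 in the other three. The summed level of the 7 markers was 7233 CPM in sebaceous cells with DMSO, against 204 to 763 CPM over the other types of that library.

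**Figure D1:**
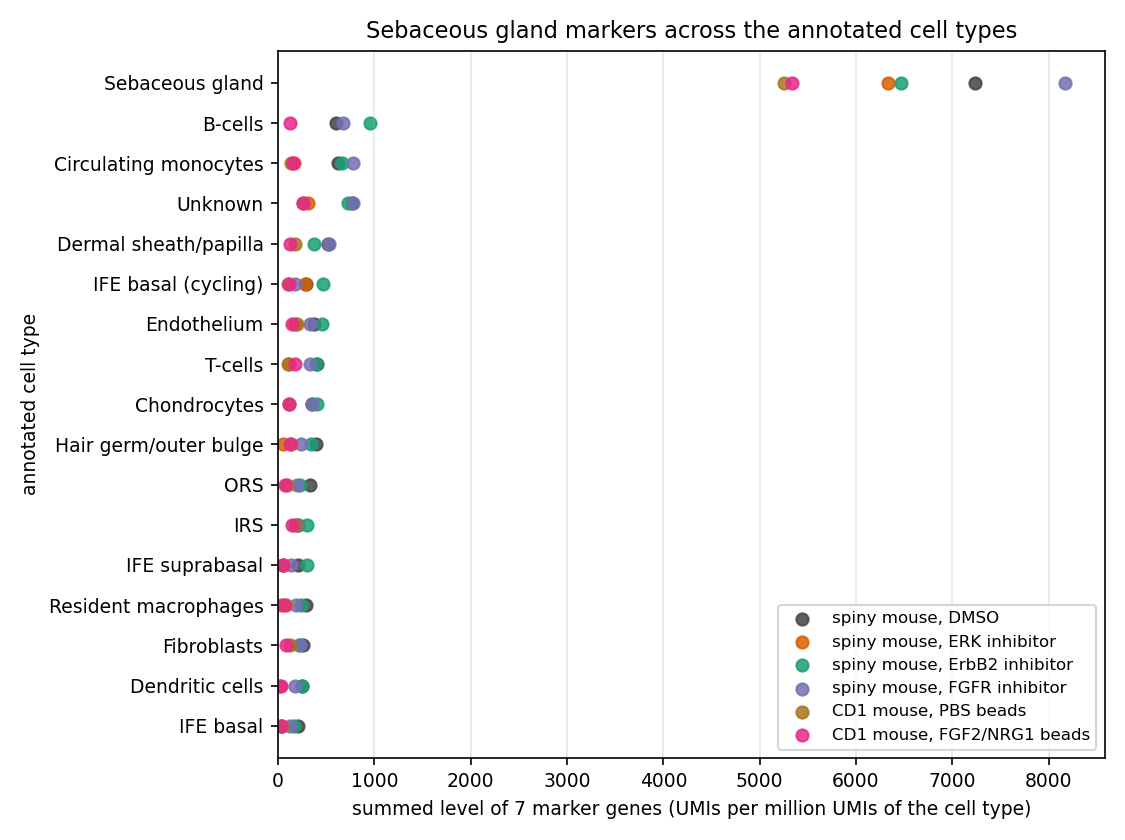
Summed CPM of the 7 sebaceous markers (horizontal, linear scale from 0) for each annotated cell type (vertical); each point is 1 library. The sebaceous gland points lie between 5256 and 8175 CPM, to the right of every other type.

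Per cell, thinned to 1000 UMIs, 68.7% of DMSO sebaceous cells had a Cers4 UMI (83.1% unthinned, over the same cells), against 17.6% of T cells, which should lack it. For Fasn it was 46.4% (69.3% unthinned) against 9.86% of T cells, and for Ces1d 45.7% (80.1%) against 4.93%. Pparg was seen in 14.7% (46.4%) against 1.06%. The median depths before thinning were 3605.5 UMIs in these sebaceous cells and 1399.5 UMIs in T cells, and 70 sebaceous cells of fewer than 1000 UMIs were left out. Each of these 4 genes was thus found in more sebaceous cells than free RNA puts in T cells. Some textbook sebocyte genes were not. Dgat2 was seen in 4.12% of these sebaceous cells against 7.75% of T cells, Fads1 in 0.150% against 1.76% and Scd1 in 0.300% against 0.352%. Elovl3 was seen in neither. The other given and textbook sebocyte genes were seen in a higher share of sebaceous cells than of T cells.

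Beyond the markers given, the 15 genes with the highest ratio to all other cells of the same library were read in each library. Fa2h, which hydroxylates fatty acids, was among the 15 leading genes in 5 of 6 libraries, including all 4 of the spiny mouse, and stood 94.6-fold above the other cells with DMSO. Far2, which reduces fatty acids to the alcohols of wax esters, was among them in all 4 spiny mouse libraries, and Awat1 in 4 of the 6 libraries. Mc5r, the melanocortin receptor long tied to sebum output, led in 3 spiny mouse libraries, as did Pde6c. In the mouse, Cyp3a57, Cyp2g1 and Serpinb6d led in both libraries. These leading genes describe cells that were annotated from the same counts and were not tested.

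Many lipid genes read very differently in the 2 species, but a low spiny mouse value may be a gene poorly captured under its mouse name, and this cannot be told apart here from a difference in expression. Scd1, the stearoyl-CoA desaturase of mouse sebaceous glands (chromosome 19, 44394455 to 44407879, minus strand), was at 7008 CPM with PBS and 6510 CPM with FGF2/Nrg1. In the spiny mouse it lay between 2.55 and 3.90 CPM. Elovl3, a sebaceous elongase, was at 1487 and 1416 CPM in the mouse and at 0 UMIs in all 4 spiny mouse libraries. Sqle, which oxidises squalene, was at 407 and 373 CPM in the mouse and likewise at 0 UMIs in the spiny mouse. The opposite pattern was found for G0s2, an inhibitor of lipid droplet lipase, at 442, 198, 246 and 361 CPM in the spiny mouse libraries (DMSO, ERK, ErbB2, FGFR inhibitor) and at 1 and 5 UMIs in the mouse. Crabp2, a carrier of retinoic acid, was at 119, 113, 122 and 215 CPM in the spiny mouse and at 1.03 and 1.58 CPM in the mouse. Plin1 was at 0 UMIs in every library.

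RNA of other cell types was looked for with marker lists. In DMSO sebaceous cells basal keratinocyte markers took 0.400% of UMIs and suprabasal markers 1.09%, while fibroblast markers took 0.022%, adipocyte markers 0.019% and T cell markers at most 0.001%. The suprabasal share ranged from 0.079% with the ERK inhibitor to 1.09% with DMSO, and the share of inner root sheath and hair shaft markers from 0.002% with the ERK and ErbB2 inhibitors to 0.046% with FGF2/Nrg1. Among the defining markers at 0 in DMSO sebaceous cells were the Schwann cell genes Cdh19 and S100b, the dendritic cell genes H2-Ab1 and Ccl22, and the hair gene Krt31. These shares moved between libraries, and their part in the differences given further on was not tested except where a value is given.

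The authors' clustering split the spiny mouse sebaceous cells over 4 clusters. Cluster 4 held 1344 of 3481 cells (38.6%), cluster 18 held 869 (25%), cluster 20 held 843 (24.2%) and cluster 36 held 425 (12.2%). These clusters were drawn from the same counts, so their genes are a description with no test, and the order in which they are set here, 18 then 20 then 36, was chosen after their values were seen. The mouse cells fell mainly into cluster 42, with 233 of 421 cells (55.3%), a cluster with no spiny mouse cell, and into cluster 4, with 149.

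**Figure D2:**
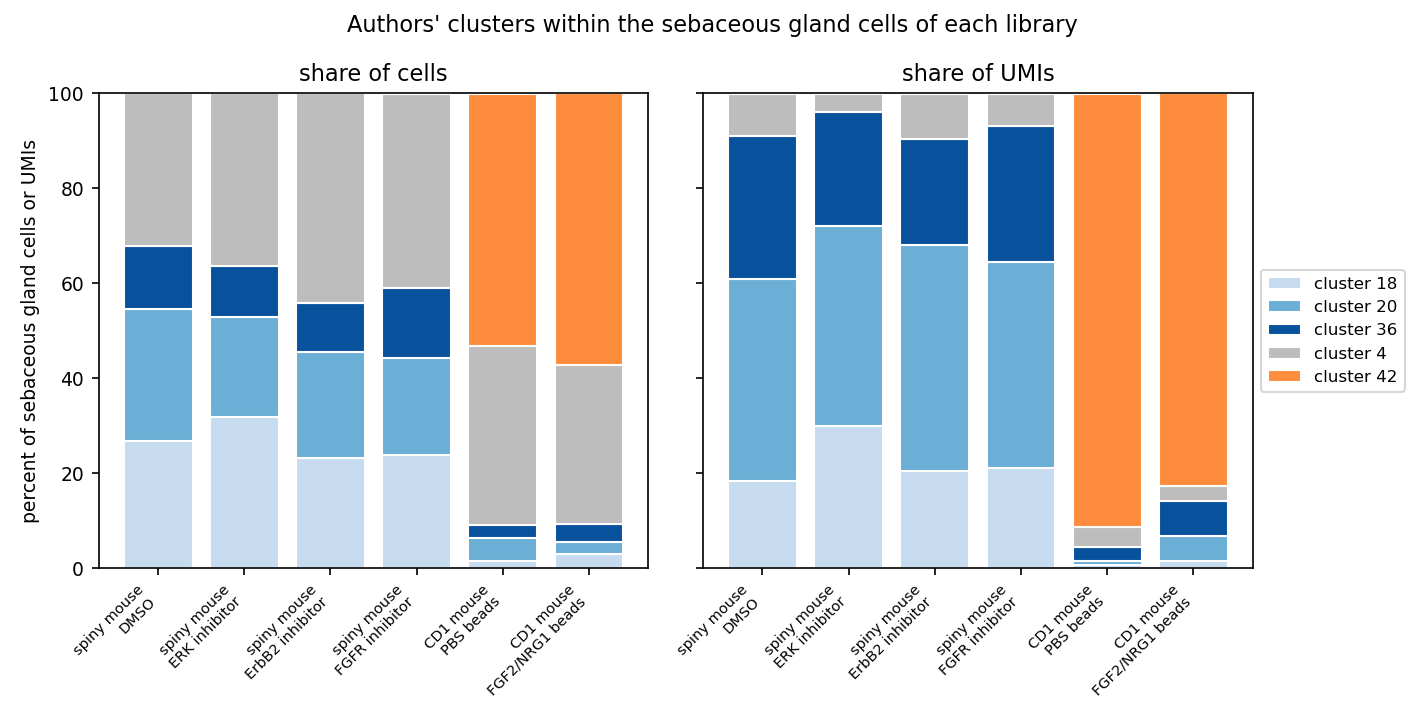
Percent of sebaceous cells (one panel) and of sebaceous UMIs (the other) in each of the authors' clusters, stacked, for the 6 libraries. With DMSO, cluster 4 holds 32.1% of the cells and 8.85% of the UMIs, and cluster 42 is seen in the mouse alone.

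Cluster 18 had the lowest levels of the lipid enzymes, and among the genes that led it over other spiny mouse cells were Ces1d, Ffar4, a receptor of free fatty acids, and Saa3. Aldh3a1, an aldehyde dehydrogenase of epithelia, was at 1760 CPM in cluster 18 of the DMSO library, 425 CPM in cluster 20 and 257 CPM in cluster 36. Ctsl, a lysosomal protease, was at 2548, 1368 and 1083 CPM in the same order. Gstm1, a glutathione transferase, stood at 339, 160 and 98.8 CPM. All 3 genes thus stepped down from cluster 18 to cluster 36, and did so with the ErbB2 and FGFR inhibitors too (Aldh3a1 at 1576, 366 and 131 CPM, and at 2419, 446 and 127 CPM).

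Cluster 20 had the highest levels of a small set of lipid genes. Plin2, which coats young lipid droplets, was at 535, 2410 and 2305 CPM in clusters 18, 20 and 36 of the DMSO library. Pparg was at 88.0, 214 and 194 CPM. G0s2 was at 95.8, 627 and 444 CPM, and Cyp51, an enzyme of cholesterol synthesis, at 263, 923 and 657 CPM. For G0s2 and Cyp51 the order with cluster 20 on top was the same in the ErbB2 inhibitor library (47.5, 374 and 202 CPM, and 174, 630 and 534 CPM) and in the FGFR inhibitor library (69.4, 560 and 287 CPM, and 202, 714 and 616 CPM).

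Cluster 36 had the highest levels of the enzymes that make and finish sebum lipids. With DMSO, Fasn was at 116, 1090 and 2490 CPM in clusters 18, 20 and 36. Acly, which supplies cytosolic acetyl-CoA, was at 99.6, 693 and 1303 CPM. Cers4 was at 279, 4016 and 7676 CPM. These 3 genes were already high in cluster 20, while Awat2 and Elovl4 were low there as in cluster 18. Awat2 was at 3.24, 9.21 and 393 CPM, and Elovl4, an elongase of very long chains, at 11.6, 17.0 and 804 CPM. Awat1 was at 12.3, 172 and 1242 CPM, Fa2h at 0.647, 38.2 and 150 CPM, and Crabp2 at 16.8, 20.9 and 337 CPM. Dnase1l2, a nuclease of dying skin cells, was at 1.94, 3.91 and 34.1 CPM.

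**Figure D3:**
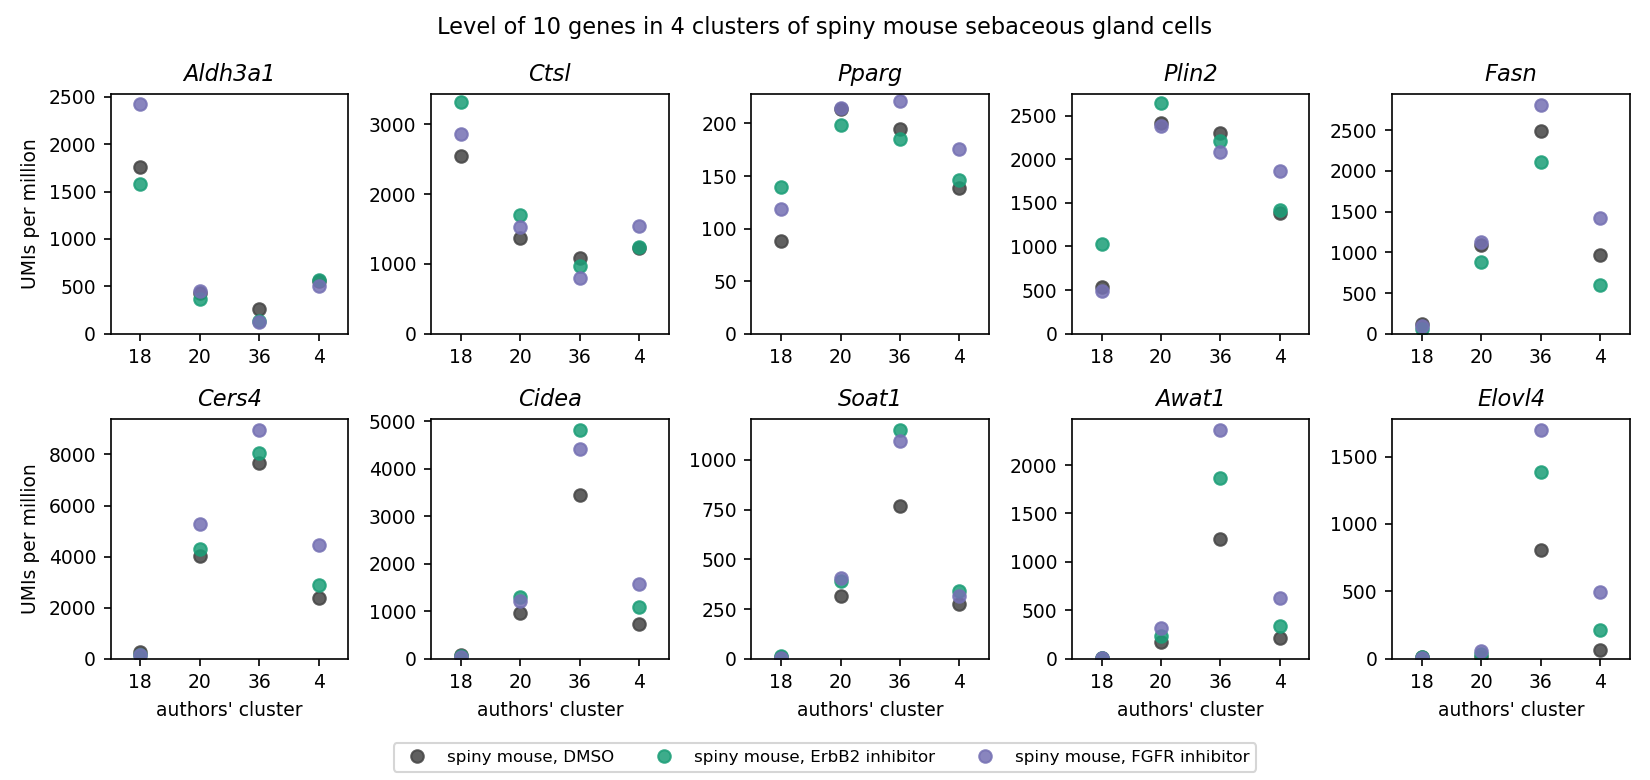
CPM (vertical, linear scale from 0) of 10 genes in clusters 18, 20, 36 and 4 (horizontal); each point is the DMSO, ErbB2 inhibitor or FGFR inhibitor library. Aldh3a1 and Ctsl step down from cluster 18 to 36, Pparg and Plin2 flatten after cluster 20, and Awat1 and Elovl4 are highest in cluster 36.

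Several lists followed this order and others did not. Of the fatty acid synthesis genes, 10 of 12 stepped up from cluster 18 through 20 to 36 with DMSO, 10 of 12 with the ErbB2 inhibitor and 9 of 11 with the FGFR inhibitor, with medians of cluster 36 over 18 of 3.05, 3.14 and 3.38 on the log2 scale. For wax ester and triglyceride synthesis it was 8 of 10, 8 of 11 and 8 of 9, and for the peroxisome list 11, 10 and 12 of 13. Over all genes, 25.4%, 23.4% and 27.9% stepped up. The cell cycle list went the other way, with 15, 12 and 10 of its 19 members stepping down (medians of -1.21, -1.03 and -2.05), against 35.6%, 40.8% and 33.7% of all genes. Basal keratinocyte genes stepped down in 8, 8 and 7 of 9 cases, and cytokine and antimicrobial genes in 7 of 10, 5 of 9 and 8 of 9. Lipid uptake and transport followed neither direction, with 3 of 9, 4 of 11 and 3 of 9 stepping up and 3, 5 and 4 stepping down. Lipid transcription regulators had 2 of 10, 4 of 13 and 3 of 9 stepping up and 2 stepping down in each library. Of cholesterol synthesis 9, 10 and 6 of 16 stepped up and 0 stepped down.

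Depth and RNA make-up moved along with this order. The median cell of the DMSO library had 3320 UMIs in cluster 18, 7225 in cluster 20 and 11118 in cluster 36, and the median percent of UMIs from ribosomal genes was 19.7%, 16% and 12.4%. In cells thinned to 1000 UMIs the 124 genes of the lipid lists took a median of 0.8% of UMIs in cluster 18, 2.8% in cluster 20 and 4.95% in cluster 36. In the ErbB2 inhibitor library these medians were 0.8%, 2.8% and 5.1%. Across the 1334 thinned DMSO cells the lipid share and the ribosomal percent had a Pearson correlation of -0.69, and both are shares of the same UMIs of a cell, so they are tied by construction. Whether depth has a part in the order of the clusters was not tested.

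Cluster 4 held cells of few UMIs, with a median of 1440 with DMSO. Fasn was at 969 CPM and Cers4 at 2399 CPM there, between clusters 18 and 20, and Awat1 was at 213 CPM, between clusters 20 and 36. Suprabasal markers took 3.55% of its UMIs, and in T cells of the same library, which do not make them, 2.97%. For basal keratinocyte markers the values were 0.931% and 0.863%. These foreign markers were thus about as frequent in cluster 4 as free RNA made them in T cells. Without cluster 4 the sebaceous share was 6.20% of cells with DMSO, 6.66% with the ERK inhibitor, 7.37% with the ErbB2 inhibitor, 7.49% with the FGFR inhibitor, 3.82% with PBS and 3.04% with FGF2/Nrg1.

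Each inhibitor library was then compared with DMSO, to ask what blocking ERK, ErbB2 or the FGF receptors went with in these cells. The 3 comparisons share the DMSO library, so a feature of that library appears in all 3, and no overlap between them was computed. Ratios are log2 of CPM with 1 UMI added to each count, over genes with at least 30 UMIs in the pair. A list member is counted as higher or lower from 1.5-fold. In all, 23 programme lists were read.

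The receptors and the pathway's own target genes come first. With DMSO, the sebaceous cells held 576 UMIs of Egfr (68.4 CPM), 428 of Erbb2 (50.8 CPM), 207 of Fgfr2 (24.6 CPM), 69 of Erbb3 (8.19 CPM) and 43 of Fgfr1 (5.10 CPM). Fgfr3 had 5 UMIs, and of the ligands Nrg1 had 6 and Areg 12. Spry2, a feedback inhibitor that ERK signalling induces, was at 45.9 CPM with DMSO and at 28, 25.3 and 33.3 CPM with the ERK, ErbB2 and FGFR inhibitors. All 3 inhibitor libraries thus lay below DMSO, by log2 ratios of -0.65 (-1.40 to -0.09), -0.86 (-1.10 to -0.62) and -0.46 (-0.75 to -0.19). In thinned cells the first was at 0.88, against a median of 0.41 over all genes. That setting kept 54 ERK inhibitor cells of 1000 UMIs each, so the 1 UMI added to each count weighs more there. Dusp6, a phosphatase of ERK, had 38 UMIs with DMSO and 0, 22 and 9 UMIs with the inhibitors. The sebaceous UMIs behind these counts were 8424636 with DMSO and 784623, 9752403 and 4359146 with the ERK, ErbB2 and FGFR inhibitors. The Dusp6 counts are therefore not levels, and no ratio is printed for Dusp6 alone. Its 38 UMIs with DMSO meet the minimum count in each pair. As a member of the list of ERK targets and feedback genes, Dusp6 thus enters the counts and medians of that list given next. Ccnd1, the cyclin of cell cycle entry, was at 43.9 CPM with DMSO and at 31.9, 25 and 29.1 CPM. Etv4, a transcription factor downstream of FGF signalling, did not differ beyond counting error, at 20.4 CPM with DMSO and 20.4, 21.5 and 21.3 CPM. Myc was higher with the ERK inhibitor, at 40.8 CPM against 14.2 CPM (1.55, 0.91 to 2.09).

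Over the whole list of ERK targets and feedback genes, the ERK inhibitor library had 4 of 10 members lower and 1 higher (median -0.42), against 9.82% lower and 18.5% higher over all 8046 genes of that comparison. In thinned cells only 4 members could be read, with a median of 0.52, against 0.41 over all genes in that setting. In the ErbB2 inhibitor library 3 of 12 were lower and 2 higher (median -0.30), against 8.42% and 3.79% of 9050 genes. With the FGFR inhibitor 2 of 11 were lower and 3 higher (median -0.10), against 8.35% and 3.55% of 8543 genes.

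Cell cycle genes were lower in all 3 inhibitor libraries. Mki67, a mark of dividing cells, was at 47.6 CPM with DMSO and at 7.65, 21.1 and 24.8 CPM with the ERK, ErbB2 and FGFR inhibitors. Top2a, the topoisomerase of dividing cells, was at 70.4 CPM with DMSO and at 5.10, 36.3 and 27.8 CPM. Of the cell cycle list, the ERK inhibitor library had 13 of 19 members lower and 1 higher (median -1.14), 10 of 20 lower and 0 higher with the ErbB2 inhibitor (-0.58), and 11 of 19 lower and 0 higher with the FGFR inhibitor (-0.65). The member higher with the ERK inhibitor was Tpx2. Ccna2 and Ccnb2, cyclins of division, had 0 UMIs with the ERK inhibitor against 259 and 339 with DMSO, at least 8.04-fold and 10.5-fold lower.

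The lower cell cycle level was found within single clusters as well. With the ErbB2 inhibitor the median of the cell cycle list was -0.83 in cluster 18, -0.33 in cluster 20 and -0.84 in cluster 36, and with the FGFR inhibitor it was -0.68, -0.44 and -1.31. Mki67 was lower outside the gland too, in cells not named as cycling. In cells annotated as basal interfollicular epidermis (basal keratinocytes) Mki67 was at log2 ratios of -1.90, -1.42 and -1.37 with the ERK, ErbB2 and FGFR inhibitors. In suprabasal keratinocytes it was at -2.13, -0.65 and -1.08. Cycling basal cells carry a name of their own and are left out of these ratios. There were 1428 of them with DMSO and 34, 534 and 309 with the ERK, ErbB2 and FGFR inhibitors. How many basal keratinocytes were dividing is therefore not read from Mki67 here.

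Basal keratinocyte markers moved along with the cell cycle genes. In thinned cells these 9 markers took a mean of 0.588% of UMIs with DMSO and 0.391%, 0.345% and 0.386% with the ERK, ErbB2 and FGFR inhibitors, while the cell cycle list took 0.160% and 0.059%, 0.093% and 0.092%. Within clusters 18, 20 and 36 the basal share was 0.631%, 0.329% and 0.312% with DMSO, 0.367%, 0.159% and 0.141% with the ErbB2 inhibitor, and 0.590%, 0.165% and 0.111% with the FGFR inhibitor. Of the 9 markers 5 were 1.5-fold lower and 1 higher with the ERK inhibitor. With the ErbB2 inhibitor it was 3 lower and 0 higher, and with the FGFR inhibitor 3 lower and 0 higher. Over all genes 9.82%, 8.42% and 8.35% were lower, and 18.5%, 3.79% and 3.55% higher. The balance of the ERK inhibitor counts turned over in thinned cells, with 2 of 8 lower and 3 higher. The median there was -0.31, against 0.41 over all genes in that setting. With every UMI kept the median was -0.75, against 0.12 over all genes. As the mean over cells 3 of 9 were lower and 2 higher (median -0.28, against 0.17 over all genes). The median of the basal markers thus lay below that of all genes in each of these settings. No basal marker was at 0 UMIs in any library. Of 8 suprabasal markers 8, 0 and 7 were lower with the ERK, ErbB2 and FGFR inhibitors, at medians of -4.41, 0.06 and -1.30. In the same order 0, 1 and 0 were higher. The part of basal and suprabasal keratinocyte RNA in the lower cell cycle level was not tested.

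With the ERK inhibitor, of all 253 list members read in sebaceous cells 53 were higher and 39 lower, against 18.5% and 9.82% of all genes. The balance turned over without the cell that held most UMIs of each gene in either library, where 26 of 247 members were higher and 69 lower, against 8.94% and 18.7% of all genes. That step takes 1 of 66 cells from one library and 1 of 1404 from the other. Of the 66 cells 7 were in cluster 36. Among genes with at least 100 UMIs, 11.6% were higher and 7.16% lower. The median over all genes was 0.12, and -0.10 without each top cell.

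Saa1 and Saa3 stood highest with the ERK inhibitor, with other genes of defence below them. Saa3, an acute phase protein made locally in tissue (chromosome 7, 46711998 to 46715700, minus strand), had 646 UMIs against 132, that is 823 CPM against 15.7 (5.71, 5.44 to 6.0). Its levels with the ErbB2 and FGFR inhibitors were 18.5 and 25.9 CPM, so the ERK inhibitor library was the highest of the 4. Saa1 had 151 UMIs against 20 (6.28, 5.66 to 7.09). Near-identical copies exist in this family, so reads may be split among them. Cxcl1, which draws neutrophils, was at 293 CPM against 25.4 (3.53, 3.25 to 3.80), and Lcn2, which withholds iron from bacteria, at 371 CPM against 49.0 (2.92, 2.70 to 3.14). Mt1, a metallothionein, was at 1592 CPM against 273 (2.55, 2.44 to 2.65). Each of these intervals lies far above 0.

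Saa3 was seen in part of the cells. In thinned cells 25.9% had a Saa3 UMI with the ERK inhibitor and 1.35% with DMSO (33.3% and 5.70% of all sebaceous cells unthinned, the base of the later pairs too), while 0 of 19 T cells (at most 17.6%) and 0.352% of 284 T cells did. The median depths were 4575.5 UMIs in these sebaceous cells and 4184 in T cells. A single cell held 37.5% of the Saa3 UMIs, 34.4% of those of Saa1 and 43.0% of those of Cxcl1, and 20.6% and 25.9% of those of Lcn2 and Mt1. Lcn2 was seen in 22.2% of thinned cells against 4.95%. Mt1 was seen in 50% against 27.1%, and the DMSO share is at the background of free RNA, which gave 31.0% of T cells of that library an Mt1 UMI. Lcn2 was higher with the ERK inhibitor in basal and suprabasal keratinocytes too, by 1.75 and 1.85, and Cxcl1 in basal keratinocytes by 2.46. Of the list of cytokine and antimicrobial genes, 4 of 10 were higher and 3 lower (median 0.39). The lower ones include Il18, a cytokine of the inflammasome, with 2 UMIs against 758 (-4.56, -8.19 to -3.28), whereas in basal keratinocytes Il18 was at 0.90.

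Lipid genes with the ERK inhibitor gave a split picture. Acly was at 365 CPM against 766 (-1.07, -1.25 to -0.90), and G0s2 at 198 CPM against 442 (-1.15). Mgll, which splits monoglycerides, was at 495 CPM against 191 (1.37, 1.21 to 1.53). Fasn, Cers4 and Pparg stayed within 1.5-fold, at -0.17, -0.22 and 0.40. Of the wax ester and triglyceride synthesis genes, 5 of 10 were higher and 1 lower (median 0.61), with Awat1 at 874 CPM against 470 (0.90, 0.78 to 1.01). That rested on 1 cell with 36% of its Awat1 UMIs, since without the top cell of each gene Awat1 was at 0.28 and the list at -0.01, with 2 higher and 1 lower. The median of all genes in that setting was -0.10. In the same way Cd36, a fatty acid transporter, was at 2.03 with 38 of 40 UMIs in 1 cell, and at -1.26 without it.

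Among the lowest genes with the ERK inhibitor were keratinocyte, hair sheath and blood genes. Krt25 of the inner root sheath had 1 UMI against 1235 (-5.85, -12.15 to -4.37), Flg of the cornified layer 2 against 1677 (-5.70), and Pf4, a platelet chemokine, 0 against 569, at least 17.7-fold lower. Cst6, a protease inhibitor of the upper epidermis, was at 30.6 CPM against 353 (-3.47, -4.17 to -2.95). In DMSO sebaceous cells Cst6 was highest in cluster 4, at 818 CPM. Keratin 1 (Krt1), at 39 UMIs against 11977, was at the level of free RNA in both libraries. The part of free RNA in the others was not tested.

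**Figure D4:**
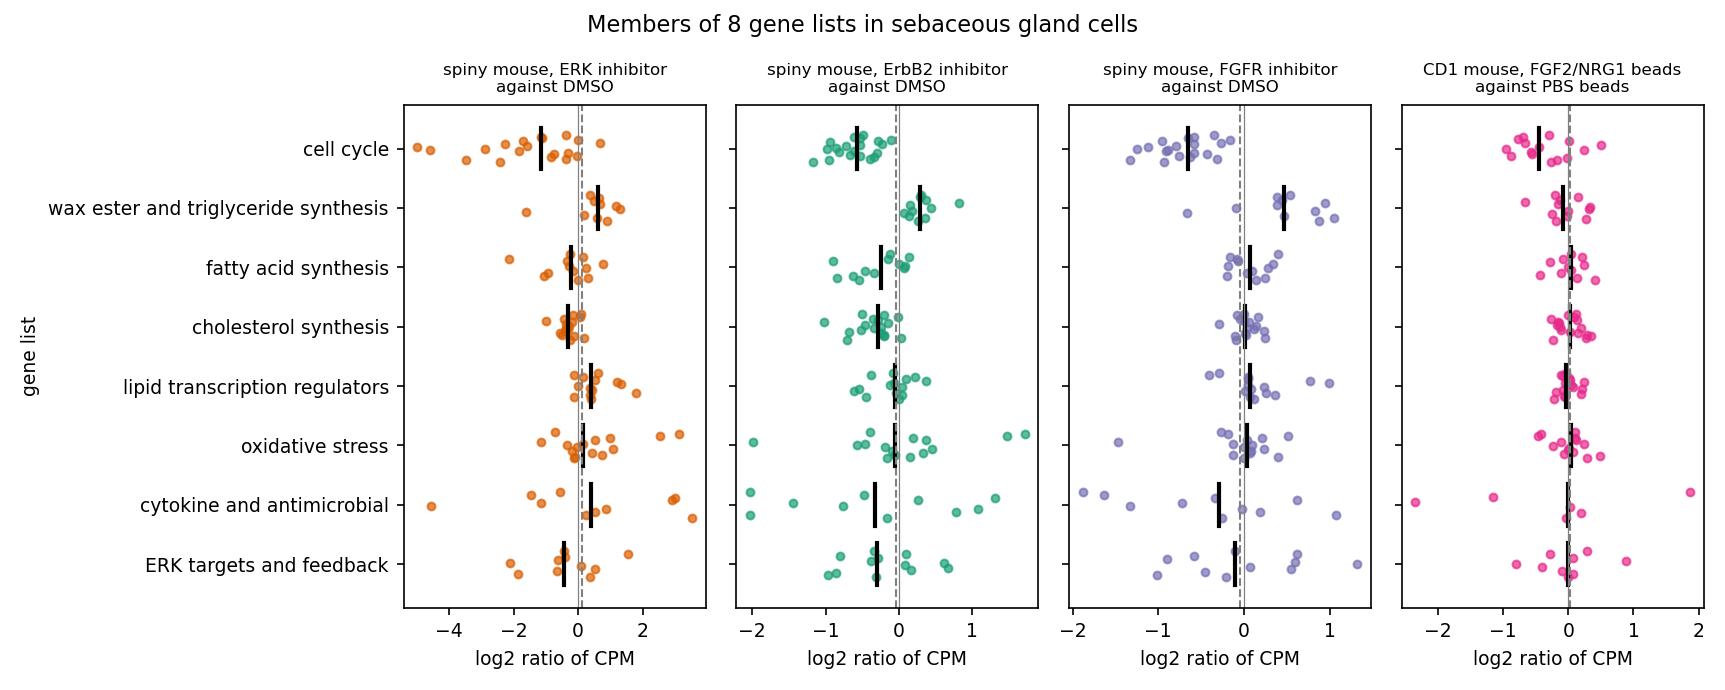
Log2 ratios of CPM (horizontal, with a scale of its own in each panel) of the members of 8 lists in the 4 comparisons; each point is 1 gene, the black bar is the list's median and the dashed line the median of all genes. The cell cycle list lies low in the 3 inhibitor comparisons, with medians of -1.14, -0.58 and -0.65.

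With the ErbB2 inhibitor 20 of 274 list members were higher and 32 lower, against 3.79% and 8.42% of all genes. The gene that stood out was Pdk4, pyruvate dehydrogenase kinase, which keeps pyruvate from becoming acetyl-CoA (chromosome 6, 5483351 to 5496309, minus strand). It had 2284 UMIs against 138, that is 234 CPM against 16.4 (3.83, 3.59 to 4.10). With the ERK and FGFR inhibitors it was at 59.9 CPM (47 UMIs) and 25 CPM. The ErbB2 inhibitor library is thus the highest of the 4, and the ERK inhibitor library next. Pdk4 was found in 17.4% of thinned sebaceous cells against 1.12% with DMSO (42.3% and 8.55% unthinned), and in 1.64% of 122 T cells and 0 of 284 (at most 1.29%). The median depths with the ErbB2 inhibitor were 4346 UMIs in sebaceous cells and 1937 in T cells.

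The Pdk4 ratio was 5.22 in cluster 18, 3.62 in cluster 20, 2.70 in cluster 36 and 3.99 in cluster 4. The Pdk4 level with the ErbB2 inhibitor was lower along the order of the clusters, from 384 CPM in cluster 18 to 127 CPM in cluster 36, while DMSO had 9.71 and 19.2 CPM. The same gene was higher in other epithelial cells, by 5.82 in basal and 5.71 in suprabasal keratinocytes and 5.35 in hair germ and outer bulge. In outer root sheath it had 32 UMIs against 0, at least 15.95-fold higher.

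Several further genes stood higher with the ErbB2 inhibitor. Fkbp5, a chaperone partner of the glucocorticoid receptor, was at 97.3 CPM against 43.9 (1.15, 0.97 to 1.32). Txnip, which restrains glucose uptake, was at 150 CPM against 38.2 (1.97, 1.80 to 2.15), and with the ERK inhibitor at 131 CPM. Mt1 was at 755 CPM against 273 (1.47, 1.40 to 1.54), and was seen in 46.6% of thinned sebaceous cells and 41.8% of T cells of the same library. These 3 are known targets of hormones or of the metabolic state in many tissues. Fam13a had 105 UMIs against 5 (3.93), Wfdc17, a secreted protease inhibitor relative, 195 against 15 (3.40), and Lpl, lipoprotein lipase, 73 against 8 (2.83). In basal keratinocytes Fkbp5 was at 2.30, Txnip at 2.38 and Mt1 at 1.12, so the same 3 genes were higher outside the gland.

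Some genes of fatty acid and cholesterol synthesis were lower with the ErbB2 inhibitor, 3 of 12 and 3 of 17, and 0 were higher (medians -0.25 and -0.29), against 8.42% lower and 3.79% higher over all genes. Slc25a1, the mitochondrial citrate carrier, was at 174 CPM against 323 (-0.89, -0.98 to -0.81), while the ERK and FGFR inhibitor libraries had 254 and 308 CPM. Acly was at 498 CPM against 766 (-0.62, -0.67 to -0.57), and Fasn at 961 CPM against 1325, a ratio of -0.46 that does not reach 1.5-fold. Srebf1, the transcription factor of these genes, was at 119 CPM against 175 (-0.55, -0.66 to -0.44), also short of 1.5-fold. Of the cholesterol genes past 1.5-fold, Hmgcs1 was at 82.5 CPM against 135 (-0.71, -0.84 to -0.58) and Nsdhl was at 16.1 CPM against 32.8 (-1.02, -1.32 to -0.74).

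Over the 4 clusters, the gap in cholesterol synthesis was widest in cluster 18. There, 9 of 13 cholesterol synthesis genes were lower and 0 higher (median -0.81), against 10.1% lower and 8.88% higher over all genes of that cluster. In cluster 20 it was 3 of 16 lower, against 9.37% of all genes, in cluster 36 it was 2 of 16, against 11.4%, and in cluster 4 it was 1 of 14, against 9.91% (medians -0.21, -0.28 and -0.22). The shares in clusters 36 and 4 thus lay near that of all genes. Fasn was at -1.04 in cluster 18, -0.30 in cluster 20, -0.24 in cluster 36 and -0.71 in cluster 4. Awat1 was at 563 CPM against 470 (0.26, 0.20 to 0.32), and 1 of 11 members of wax ester and triglyceride synthesis was higher and 0 lower (median 0.28). Pparg and Cers4 were at 0.00 and -0.05. G0s2 was at 246 CPM against 442 (-0.84), lower in each of clusters 18, 20, 36 and 4.

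**Figure D5:**
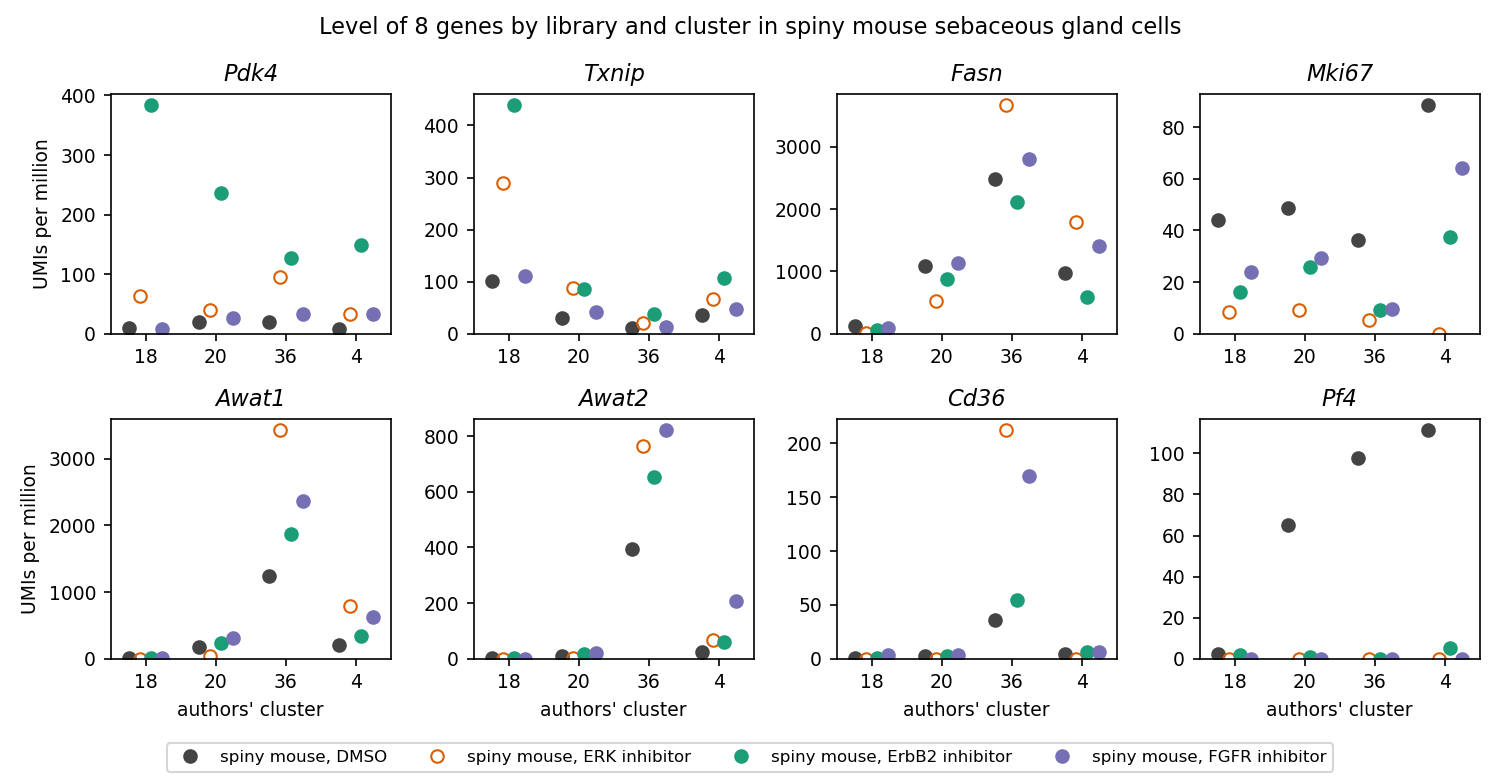
CPM of 8 genes (vertical, linear scale from 0) by cluster in the 4 spiny mouse libraries; open points stand for fewer than 30 cells, and clusters with fewer than 5 cells are left out. Pdk4 with the ErbB2 inhibitor lies between 127 and 384 CPM over the clusters, against 8.05 to 19.2 CPM with DMSO.

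Among the lowest genes with the ErbB2 inhibitor were genes of the hair. Krt25 had 7 UMIs against 1235 (-7.48), Tchh, trichohyalin of the inner root sheath, 18 against 1430 (-6.45), and Krt27 0 against 225, at least 86.8-fold lower. These genes were at the level of free RNA in at least 1 of the libraries. S100a9, a calcium-binding protein of neutrophils and stressed keratinocytes, had 112 UMIs against 398 (-2.03).

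With the FGFR inhibitor 28 of 264 list members were higher and 25 lower, against 3.55% and 8.35% of all genes. Without the top cell of each gene it was 21 and 31 of 260. The shares of all genes just given were taken with every cell, so they are no base for these counts. No change in the balance of higher and lower members is therefore read from them. The median of all genes was -0.05 with every cell and -0.07 without each top cell. Genes of the last steps of sebum lipids, Elovl4, Awat1, Awat2 and Far1, were among the higher ones. Elovl4 (chromosome 9, 83778692 to 83806277, minus strand) was at 549 CPM against 259 (1.09, 1.0 to 1.17). Awat1 (chromosome X, 100572251 to 100578205, plus strand) was at 860 CPM against 470 (0.87, 0.81 to 0.94), and Awat2 at 260 CPM against 126 (1.05, 0.93 to 1.17). The ErbB2 inhibitor library had these 3 genes at 350, 563 and 160 CPM, between DMSO and the FGFR inhibitor. Far1, which like Far2 makes fatty alcohols, had 136 UMIs against 92 (1.51, 1.12 to 1.91), while Far2 was at 136 CPM against 100 (0.44). Ces4a, a carboxylesterase, was at 120 CPM against 33.0 (1.86, 1.65 to 2.08), and the highest ratio of all was that of Bglap, with 222 UMIs against 87 (2.29).

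Of wax ester and triglyceride synthesis, 4 of 11 genes were higher and 1 lower with the FGFR inhibitor (median 0.47). The lower one was Dgat2, the last step of triglycerides, at 19.5 CPM against 31.2 (-0.67, -1.05 to -0.32). In thinned DMSO cells 4.12% of sebaceous cells and 7.75% of T cells had a Dgat2 UMI. With the FGFR inhibitor it was 4.73% and 3.70%. The DMSO share was thus no higher than that in T cells, and the share of sebaceous cells was not lower with the FGFR inhibitor. The enzymes that build the chains were close to DMSO, with Fasn at 0.09, Acly at -0.19 and Cers4 at 0.28, and of 12 fatty acid synthesis genes 0 were higher and 0 lower (median 0.07). Of 16 cholesterol synthesis genes 0 were higher and 0 lower (median 0.01).

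The size of the ratio differed by cluster. Awat1 was at 0.01 in cluster 18, 0.87 in cluster 20, 0.93 in cluster 36 and 1.56 in cluster 4, and Elovl4 at -0.33, 1.79, 1.08 and 2.86. Both ratios were thus highest in cluster 4, and neither gene was 1.5-fold higher than with DMSO in cluster 18. The median of wax ester and triglyceride synthesis was -0.01, 0.37, 0.65 and 1.20 in the same order. In thinned cells 29.2% had an Awat1 UMI against 18.7% with DMSO (42% and 34% of all sebaceous cells unthinned), and 1.85% and 2.82% of T cells. A second random thinning gave 29.6% and 18.3% of sebaceous cells and 2.78% and 2.11% of T cells, so no order is read from the T cells. The median depths with the FGFR inhibitor were 4567 UMIs in sebaceous cells and 2080 in T cells. Outside the gland Awat1 was at -0.58 in basal and -0.90 in suprabasal keratinocytes, and Elovl4 at -0.26 and 0.35, so neither was 1.5-fold higher there. Cd36 was at 51.2 CPM against 12.7 (2.00, 1.67 to 2.36), seen in 35 of 607 cells against 39 of 1404.

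Among lower genes with the FGFR inhibitor, Il18 was at 35.6 CPM against 90.0 (-1.33, -1.60 to -1.09) and Ier3, an immediate early gene, at 30.3 CPM against 56.5 (-0.89, -1.19 to -0.62). Pf4 had 0 UMIs against 569, at least 98.1-fold lower. The DMSO value for Pf4 came from 40 cells. Hair genes were also low here, Tchh with 55 UMIs against 1430 (-3.72), and S100a8 with 170 against 1023 (-1.63).

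In the mouse the library with FGF2/Nrg1 beads was compared with that with PBS beads, to ask what the 2 growth factors went with in sebaceous cells. Most sebaceous genes were level between them. Fasn was at 0.05, Cers4 at 0.02, Scd1 at -0.11, Cidea at 0.01 and Mc5r at 0.05 on the log2 scale. Cidea encodes a droplet fusion protein and was at 1939 and 1950 CPM. Of 256 list members 13 were higher and 18 lower, against 4.96% and 5.22% of 8202 genes, so the members lay near the share of all genes. Of the ERK targets and feedback genes 1 of 9 was higher, Ier3 (0.89, 0.13 to 1.78), and 1 lower, with Spry2 at 0.08, Dusp4 at 0.00 and Ccnd1 at 0.07.

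The widest gap upward was Fn1, fibronectin, with 283 UMIs against 2, that is 112 CPM against 1.03 (6.19, 4.90 to 9.82). A single cell held 35.7% of these UMIs, and without the top cell of each library the ratio was 6.14. In thinned cells 7.61% had an Fn1 UMI against 0.658% with PBS (29.2% and 1.06% unthinned), but 11.2% of T cells in the FGF2/Nrg1 library did, at a median depth of 2308.5 UMIs against 9233 in sebaceous cells. The share of cells is therefore no higher than free RNA gives, and Fn1 was also higher in basal and suprabasal keratinocytes, by 3.24 and 3.60. Spp1, osteopontin, with 49 UMIs against 3 (3.27, 2.02 to 5.98), was at 5.14 and 4.20 in these keratinocytes.

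Several other genes that read higher sat in 1 cell. Elovl4 had 898 UMIs against 129 (2.41, 2.15 to 2.70), with 60.7% in 1 cell of cluster 36, and was at -0.23 in cluster 42. Krt35 of the hair shaft had 191 UMIs against 5, with 87.4% in 1 cell, and S100a3, also of hair, 305 against 11, with 91.5% in 1 cell. Fabp4 had 236 UMIs against 50 (1.84), with 73.7% in 1 cell. The level of each of these 4 genes with FGF2/Nrg1 thus comes mostly from 1 cell.

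Among the lowest genes was Scd3, a desaturase of skin (chromosome 19, 44203269 to 44244016, plus strand), with 198 UMIs against 812, that is 78.4 CPM against 417 (-2.41, -2.64 to -2.19). It was at -2.71 in cluster 42 alone and at -2.60 without the top cell of each library. The gene was found in few cells, 3.55% of thinned cells against 8.55% (11.2% and 17.0% unthinned), with 0.746% of T cells and 0 of 36 T cells (at most 9.74%). Its close relative Scd1 was at 6510 CPM against 7008 and Scd2 at 183 CPM against 315 (-0.78, -0.96 to -0.60), though Scd2 was at 0.01 in thinned cells. Of the elongation and desaturation list 1 of 12 was higher and 2 lower (median -0.34). The transcript Gm42418, which overlaps ribosomal RNA genes, was at 4655 CPM against 18220 (-1.97), and lower by a like amount in other types, at -1.59 in basal keratinocytes.

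Of the interferon response list 3 of 4 members used were higher and 0 lower (median 0.91), with Bst2 at 23.4 CPM against 6.68 (1.72, 0.92 to 2.80), and the median was 0.35 in cluster 42. Of the cell cycle list 5 of 15 were lower and 0 higher (median -0.44), with Mki67 at 21.8 CPM against 26.2, a ratio of -0.27 whose interval spans 0 (-0.84 to 0.31).

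The remaining lists are given by their counts and medians, read against the shares of all genes stated for each comparison. Lipid transcription regulators, Pparg and Srebf1 among them, had 4 of 13 members higher and 0 lower with the ERK inhibitor (median 0.40), 0 of 14 higher and 1 lower with the ErbB2 inhibitor (-0.06), and 2 of 14 higher and 0 lower with the FGFR inhibitor (0.08). Fatty acid activation and oxidation had 2 of 17 members higher and 0 lower with the ERK inhibitor (0.16), 0 and 0 of 17 with the ErbB2 inhibitor (0.02) and 0 and 1 of 17 with the FGFR inhibitor (-0.03). The peroxisome list had 2 of 13 members higher and 0 lower with the ERK inhibitor (0.14), 0 higher and 1 lower of 14 with the ErbB2 inhibitor (-0.04), and 1 higher and 0 lower of 14 with the FGFR inhibitor (0.06). The list of lipid droplet and lipase genes had 2 higher and 2 lower of 11 (-0.14), 2 higher and 1 lower of 13 (0.02), and 1 higher and 0 lower of 12 (0.10), G0s2 and Mgll being among those past 1.5-fold. Without the top cell of each gene the ERK inhibitor counts were 1 higher and 0 lower of 10 lipid transcription regulators, 0 and 3 of 17 for activation and oxidation, 0 and 1 of 13 for the peroxisome list, and 1 and 4 of 11 for lipid droplet and lipase. Over all genes in that setting 8.94% were higher and 18.7% lower, so the 3 of 17 lay near the share of all genes.

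Lists of other programmes gave the following. Ceramide and sphingolipid genes, which serve the skin barrier as well as sebum, had 2 of 11 members higher and 0 lower with the ERK inhibitor (0.46), 2 of 13 higher and 0 lower with the ErbB2 inhibitor (-0.04), and 0 and 0 of 12 with the FGFR inhibitor (0.14). Of the xenobiotic and AHR list, the genes that handle foreign compounds, 5 of 14 members were higher with the ERK inhibitor (0.27), 0 of 15 with the ErbB2 inhibitor (-0.09) and 3 of 14 with the FGFR inhibitor (0.17), with 0 lower in each. The holocrine breakdown list of proteases and nucleases had 3 of 12 higher and 2 lower with the ERK inhibitor (0.27), 0 and 0 of 12 with the ErbB2 inhibitor (0.09), and 1 and 1 of 12 with the FGFR inhibitor (0.03). Ctsd, a lysosomal protease of that list, was at 345 CPM with DMSO and 459, 434 and 521 CPM with the ERK, ErbB2 and FGFR inhibitors. Oxidative stress genes had 5 of 15 higher and 2 lower with the ERK inhibitor (0.14), 2 and 1 of 15 with the ErbB2 inhibitor (-0.05) and 0 and 1 of 15 with the FGFR inhibitor (0.04). Without the top cell of each gene the ERK inhibitor had 0 higher and 3 lower of 12 in the holocrine breakdown list, 5 and 2 of 14 in the xenobiotic and AHR list and 5 and 2 of 15 in the oxidative stress list. The shares of all genes in that setting were 8.94% higher and 18.7% lower. The retinoid list had 1 higher and 1 lower of 8 with the ERK inhibitor (0.01), 0 and 0 of 10 with the ErbB2 inhibitor (0.04) and 1 and 0 of 9 with the FGFR inhibitor (-0.04). Glycolysis and hypoxia had 1 and 1 of 13 (0.10), 0 and 0 of 15 (-0.12) and 0 and 1 of 14 (-0.01) in the same order. Gland progenitor and duct genes had 2 and 1 of 7 (0.18), 0 and 1 of 8 (-0.10) and 3 and 0 of 8 (0.09), with Lrig1, a marker of the stem cells above the gland, at 19.2 CPM with DMSO and 16.6, 15.5 and 17.0 CPM.

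In the mouse pair the wax ester and triglyceride synthesis list had 0 of 12 members higher and 1 lower (median -0.08), with Awat1 at 75.6 CPM against 85.8 (-0.18, -0.49 to 0.13) and Soat1, which esterifies cholesterol, at 1368 CPM against 1231 (0.15, 0.08 to 0.23). Fatty acid synthesis had 0 of 11 higher and 0 lower (0.04), cholesterol synthesis 0 and 0 of 17 (0.02), and the peroxisome list 0 higher and 1 lower of 13 (0.10). Steroid and hormone receptors had 0 and 0 of 13 (0.05). The medians of these 5 lists thus lay within 0.10 of 0. The receptors for the growth factors given were few: Erbb3, which binds NRG1, had 59 UMIs against 43 (23.4 CPM against 22.1), Fgfr2 95 against 83 and Fgfr1 41 against 25.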

How the data were processed

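The sources were a deposited table of whole-number UMI counts for 20381 genes in 39577 cells, and a deposited table with each cell's library, cluster, cell type name, genes and UMI counts, and the percent of UMIs from mitochondrial, haemoglobin and ribosomal genes, per the file headers. Tissue was dissociated with a protease and libraries made with 10x 3' v3.1 reagents, per the labels' protocols. Cell Ranger 6.1.1 and GRCm38 (mm10) are named in the submitters' processing notes. How the authors filtered cells and treated doublets is not given in the sources used here, and no doublet caller was run. Leaving out cells whose markers of another type exceeded the sebaceous ones is an alternative.

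UMIs were summed over sebaceous cells of a library and scaled to CPM. Log2 ratios have 1 UMI added, genes need 30 UMIs over both libraries, and intervals are exact conditional binomial at 95% (Clopper-Pearson for shares). A gene at 0 was bounded from a floor of 3 UMIs per library. Free RNA level means a CPM under 3 times the lowest other type and over 10-fold below the highest, among types of at least 15 cells. Thinning to 1000 UMIs left out 70, 12, 136, 100, 36 and 36 sebaceous cells (DMSO, ERK, ErbB2, FGFR inhibitor, PBS, FGF2/Nrg1). Named were the markers, up to 5 members of each of 23 lists with the most UMIs and any member past 1.5-fold whose interval leaves out 0, the 8 highest and lowest ratios with at least 50 UMIs, and the 15 leading genes. Some genes that this rule names are summed up in counts, and genes of the cluster, receptor and species paragraphs were partly chosen after their values were seen. The members and the lists were chosen with earlier results of these data known. The ratio code was checked on simulated data. Tools were R 4.3.3, edgeR 4.0.16 (for TMM scaling alone), Python 3.11.15, NumPy 2.4.6, SciPy 1.17.1 and pandas 2.3.3. Coordinates come from GENCODE on GRCm38, whole gene spans of protein-coding genes.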

Additional observations from a re-analysis of the deposited data

How the results depend on the processing

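No paired analysis was possible because each group was 1 library. Thinning to 1000 UMIs left 4235 of 8046 genes to compare with the ERK inhibitor, 5706 of 9050 with the ErbB2 inhibitor, 4907 of 8543 with the FGFR inhibitor and 1548 of 8202 in the mouse. The number of genes counted as 1.5-fold higher and lower moved with the minimum count, with the way cells are weighted and with single cells. Values are given in the order higher, lower, and only where they moved by over 1.5 times. With the ERK inhibitor they were 1487 and 790, and came to 2604 and 1731 with the mean over cells, 654 and 405 from 100 UMIs, 5155 higher from 1 UMI, 484 lower in thinned cells, and 703 and 1468 without the top cell of each gene. With the ErbB2 inhibitor 343 and 762 became 759 higher (mean over cells), 151 and 356 (100 UMIs), 1371 and 2454 (1 UMI), 451 lower (thinned), 486 lower (cluster 4) and 558 higher (cluster 18). With the FGFR inhibitor 303 and 713 became 821 higher (mean over cells), 118 and 292 (100 UMIs), 1523 and 2018 (1 UMI), 445 lower (thinned), 487 and 333 (cluster 4) and 192 higher (cluster 20). In the mouse 407 and 428 became 1368 and 1334 (mean over cells), 92 and 75 (100 UMIs), 2993 and 2486 (1 UMI) and 141 and 123 (thinned). List members with the ERK inhibitor, 53 and 39, became 90 higher (mean over cells), 101 higher (1 UMI), 18 lower (thinned) and 26 and 69 without the top cell. For the ErbB2 inhibitor 20 and 32 became 32 higher (mean over cells), 12 higher (100 UMIs), 56 lower (1 UMI) and 12 higher (cluster 20). With the FGFR inhibitor 28 and 25 became 48 higher (mean over cells), 16 higher (100 UMIs), 45 and 54 (1 UMI), 47 higher (cluster 4), 11 higher (cluster 20) and 41 lower (cluster 36). In the mouse 13 and 18 became 31 and 38 (mean over cells), 8 and 8 (100 UMIs), 40 and 41 (1 UMI), 6 lower (thinned) and 7 and 28 (cluster 42). Settings with fewer cells test fewer genes; for the rest the cause was not tested. Ratios that changed sign were, with the ERK inhibitor, Acss2 (0.50 thinned, 0.22 as the mean over cells), Spry2 (0.88 thinned), and without the top cell Agpat3 (-0.26), Cd36 (-1.26) and the wax ester and triglyceride synthesis median (-0.0051). With the ErbB2 inhibitor they were Ccl20 in cluster 20 (-0.13) and Mt2 in cluster 36 (-0.15), and with the FGFR inhibitor Crabp2 in cluster 18 (-1.42). In the mouse they were Elovl4 (-1.23 as the mean over cells, -0.23 in cluster 42), Fabp4 in cluster 42 (-0.044), Hilpda (-0.027) and Ifi27l2a (-0.38) as the mean over cells, and Scd2 (0.013 thinned). Shares of sebaceous cells moved among keratinocytes, follicle and gland cells (12.4%, 15.6%, 17.1%, 16.5%, 12.4% and 13.7%, in the order DMSO, ERK, ErbB2, FGFR inhibitor, PBS, FGF2/Nrg1), from 2000 UMIs (9.83% DMSO, 11.8% ErbB2 inhibitor, 10.3% FGFR inhibitor, 5.14% PBS) and without cluster 4 (6.20%, 6.66%, 7.37%, 7.49%, 3.82% and 3.04%). The settings by single cluster, without cluster 4 and without the top cell were chosen after seeing the data.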
